A study of Mus musculus with 2 samples.

Results

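Solute carriers are membrane proteins that move amino acids, metals, ions, vitamins, nucleosides and metabolites across the cell surface and organelle membranes. The 92 genes described here are those whose symbol starts with Slc and a digit, whose Ensembl identifier is in both count tables, and whose level in the summed epithelial cells of at least 1 of 2 libraries reached 20 CPM (UMIs scaled to a common total over all shared genes, in the field's usual unit). They were drawn from 370 such genes, of which 331 had at least 1 UMI in these cells, and they belong to 30 families. Of the 92, 3 are named after a carrier but are not carriers themselves. Slc2a1, Slc2a3, Slc16a1, Slc16a3 and Slc12a2 were left out by the rule, and 4 of these 5 would have reached the limit. Members were thus chosen by their measured levels in both libraries, so the levels and library differences below describe the members and test nothing. At the limit, 48 members passed in both libraries, 32 in the control alone and 12 in the RSPO1-Fc library alone, and a member that passed in 1 library alone was bound to be lower in the other.

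The samples were organoids, cultured clusters of epithelial cells, grown from intestinal adenomas of C57BL/6 mice with the genotype ApcMin/+. Mice of this genotype carry a truncating allele of Apc, a brake on Wnt signalling, next to a normal allele, and both cultures came from it. Whether the cultured adenoma cells kept the normal allele was not examined. Mice were 17 weeks old in both groups. The control culture (n = 1 library) received no fusion protein, and the other (n = 1 library) received RSPO1-Fc, in which the Wnt-enhancing ligand R-spondin 1 is joined to an antibody Fc part, at 10 µg/ml per the treatment protocol, while a sample label gives the same figure in milligrams. The labels do not say how many animals or adenomas fed each culture. With 1 library a group there was no spread between replicates, so no test was run, and every interval below is a 95% interval that covers counting error only.

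Carriers work in relay. In intestinal epithelium, exchangers and cotransporters of the apical membrane take up sodium, amino acids and metals from the lumen, basolateral carriers pass them on, organelle carriers sort metals and sugar nucleotides, and the SLC25 family moves metabolites across the inner mitochondrial membrane. Proliferating and tumour cells are known to adjust amino acid, folate and nucleoside carriers to growth.

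Epithelial cells were barcodes above a UMI limit set for each library, with at least 5 UMIs of Epcam, which gave 1881 control and 2751 RSPO1-Fc cells with median totals of 27736 and 23548 UMIs. CPM were taken over the 27514 shared genes, and a UMI counts 1 molecule at its 3′ end. Epcam chose the cells, so it is no check of the label. Of the other epithelial markers, the keratin Krt8 was at 1989 and 2689 CPM and Krt19 at 1122 and 2276 CPM, and none was at 0. The control also held 180 macrophage-like, 81 fibroblast-like, 78 endothelial-like and 30 pericyte-like cells, and the RSPO1-Fc library held 0 of each. Macrophage markers summed to 151 CPM in control epithelial cells and 4.28 CPM in RSPO1-Fc epithelial cells, where 4 of 9 were at 0, and fibroblast markers summed to 57.5 and 0.967 CPM. Endothelial markers were at 55.6 and 34.04 CPM, with Cdh5 (11.1 and 11.2 CPM) and Egfl7 (14.1 and 16.7 CPM) no lower with RSPO1-Fc, pericyte markers at 49.03 and 10.8 CPM and lymphocyte markers at 6.05 and 0.0996 CPM. The libraries stood apart in other ways, and what these did to the carriers cannot be told apart from what RSPO1-Fc did. The posterior gene Hoxa9 was at 150.2 and 0.0142 CPM and the proximal gut factor Gata4 at 0.0149 and 43.95 CPM. Xist was at 1507 and 0.0427 CPM, and the Y-linked Ddx3y and Eif2s3y at 0 and 33.7 CPM and at 0 and 56.6 CPM. The control thus had the pattern of female cells and the RSPO1-Fc library that of male cells, so the cultures differed in sex. The tables list barcode sets of different size, and the control header names another software version than the processing notes. The libraries shared 0 cell barcodes.

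Summed over members, the level was 5537 CPM without and 4960.5 CPM with RSPO1-Fc. By mean CPM over both libraries the highest were Slc25a5, Slc25a3, Slc25a4 and Slc38a2, which together held 34.5% (control) and 43.1% (RSPO1-Fc) of the members' UMIs. In the RSPO1-Fc library alone, Slc9a3r1 and Slc25a1 were above Slc38a2. The median member was at 30.97 and 25.3 CPM. Of 92 members, 5 were at least 2-fold higher in the RSPO1-Fc library (5.43% of members against 7.23 percent of the 6911 genes at 20 CPM) and 24 at least 2-fold lower (26.1% against 18.7 percent), while 63 lay within 2-fold. Of the 6911 genes, 4032 were lower and 2879 higher in the RSPO1-Fc library, and of the members 58 and 34. Since the rule used these levels, nothing is read from these shares. The median log2((RSPO1-Fc + 1)/(control + 1)) was −0.37 for members and −0.18 for all genes. With trimmed-mean (TMM) scaling, which moves the median of all genes from −0.18 to 0.15, the split became 16 higher and 19 lower and the members' median −0.033, so every difference below is relative to that choice. Under TMM, Slc27a1, Slc4a4, Slc39a8, Slc25a16 and Slc6a9 fell short of 2-fold, and 11 members within 2-fold turned from lower to higher, among them Slc38a1, Slc4a2 and Slc44a2. Another 11 became at least 2-fold higher: Slc20a1, Slc44a1, Slc35e1, Slc35c2, Slc35a1, Slc7a1, Slc25a5, Slc52a2, Slc25a10, Slc39a1 and Slc29a1.

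**Figure D1:**
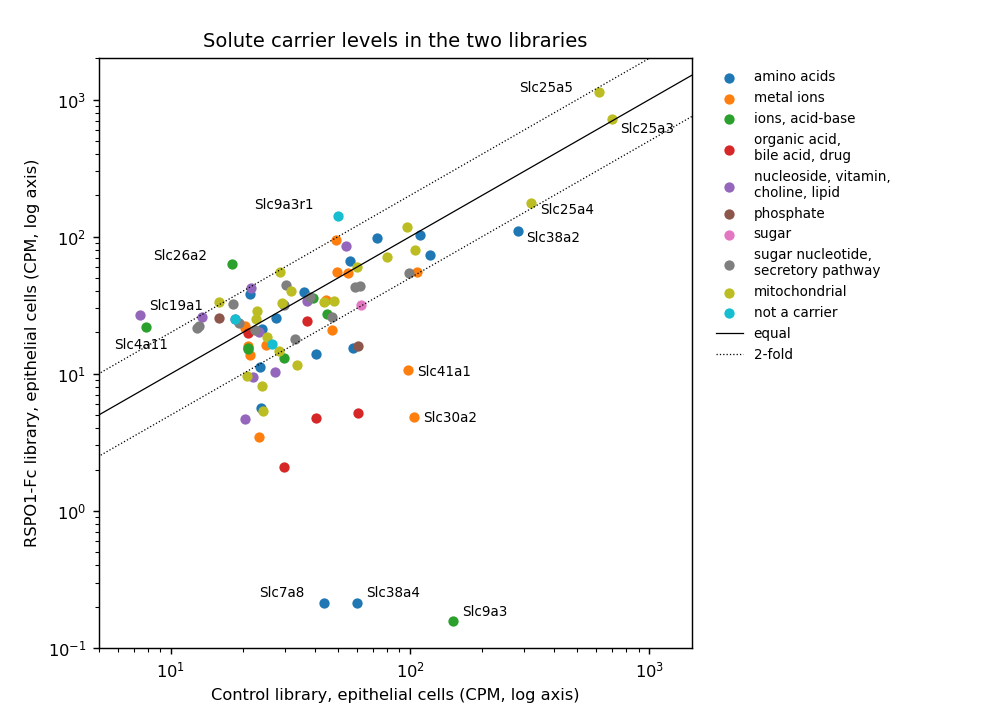
Each point is 1 of the 92 members, with its CPM in summed control epithelial cells on the x axis and in summed RSPO1-Fc epithelial cells on the y axis, both log axes, coloured by carrier group. The solid line marks equal levels and the dotted lines a 2-fold difference. Slc9a3, Slc38a4 and Slc7a8 lie far below the others, near 0.2 CPM in the RSPO1-Fc library.

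The widest differences were in carriers of the cell surface that were nearly undetected in the RSPO1-Fc library. Slc9a3 (chr13:74121457-74169442, GRCm38) encodes the apical sodium-hydrogen exchanger of absorptive epithelium. Control cells had 10077 UMIs of it (151 CPM) and RSPO1-Fc cells 11 UMIs (0.156 CPM), a level 963-fold lower (interval 538 to 1929). After each cell was thinned to 5000 UMIs, 46.1% of control epithelial cells had a Slc9a3 UMI, against 0.0727% of RSPO1-Fc cells and 0.556% of control macrophage-like cells, a class expected to lack the exchanger, with a median of 14590 UMIs. Without thinning, the epithelial shares were 83.6% and 0.400%. The control transcript was therefore spread over many epithelial cells and far above the share in a cell type that should lack it.

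Among 15 amino acid carriers, 7 were at least 2-fold lower (against 18.7 percent of all genes) and 0 at least 2-fold higher (against 7.23 percent). With TMM scaling Slc7a1 became at least 2-fold higher (log2 ratio 1.14) and Slc6a9 fell short of 2-fold lower. The group summed to 999 CPM without and 623 CPM with RSPO1-Fc. Slc38a4, a sodium-coupled neutral amino acid transporter, was at 59.7 CPM in the control and 0.213 CPM with RSPO1-Fc, 280.0-fold lower (interval 169.5 to 501). Slc7a8, the light chain LAT2 of a neutral amino acid exchanger, was at 43.8 and 0.213 CPM, 205-fold lower. Both had 15 UMIs in the whole RSPO1-Fc epithelium. They were uneven in the control: the tenth of epithelial cells with the most UMIs of the gene held 64.2% of Slc7a8 UMIs and 55.2% of Slc38a4 UMIs, against 32.9% for the glutamine carrier Slc1a5.

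Slc38a2, the amino-acid-responsive transporter SNAT2, was the highest amino acid carrier by UMIs, at 281 CPM in the control and 109.9 CPM with RSPO1-Fc, 2.56-fold lower (interval 2.49 to 2.63). Slc7a11, the cystine-glutamate exchanger that feeds glutathione synthesis, was at 57.7 and 15.3 CPM, 3.77-fold lower. Its partner Slc3a2, the heavy chain that carries several light chains to the surface, was at 121 and 74.0 CPM, within 2-fold. Slc7a11 was also at 408 CPM in control macrophage-like cells, and its log2 ratio of −1.85 became −1.46 when epithelial cells with 5 or more UMIs of other cell types' markers were left out. That step left Slc7a8 and Slc9a3 where they were, at −5.23 and −7.07 against −5.21 and −7.03.

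Slc1a4, a small neutral amino acid transporter, stood at 40.4 and 13.9 CPM, and Slc38a9, a lysosomal arginine sensor for mTORC1, at 23.7 and 5.63 CPM. The glycine transporter Slc6a9 was at 23.6 and 11.1 CPM. Others were near equal or higher: Slc1a5 at 56.2 and 66.5 CPM, Slc38a1 at 110.5 and 103.5 CPM, and the arginine carrier Slc7a1 at 21.5 and 38.4 CPM. Slc7a5, the light chain LAT1, was no member, at 7.76 and 16.3 CPM. In all, 11 of the 15 were lower and 4 higher, against 4032 lower and 2879 higher of all 6911 genes.

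Of the 14 metal carriers, 4 were at least 2-fold lower (against 18.7 percent of all genes) and 0 at least 2-fold higher (against 7.23 percent). With TMM scaling Slc39a1 became at least 2-fold higher (log2 ratio 1.28) and Slc39a8 fell short of 2-fold lower. Slc30a2 encodes ZnT2, which loads zinc into secretory vesicles. It was at 104 CPM in the control and 4.86 CPM with RSPO1-Fc, 21.4-fold lower (interval 19.2 to 23.9). Thinned shares of cells with a UMI were 37.4% and 2.58% (76.4% and 8.80% unthinned), against 1.11% in macrophage-like cells.

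Slc41a1, a magnesium exporter of the plasma membrane, was at 98.3 and 10.6 CPM, 9.30-fold lower (interval 8.62 to 10.0). Slc39a13, a zinc carrier of the secretory pathway, was at 23.3 and 3.43 CPM, and Slc39a8, a zinc and manganese importer, at 47.05 and 20.9 CPM. The copper importer Slc31a1 was at 107 and 55.0 CPM, and the zinc importer Slc39a1 went the other way, at 49.1 and 95.2 CPM. The intestinal zinc importer Slc39a4 was near equal, at 49.4 and 55.1 CPM, and the iron importer Slc11a2 (DMT1) was at 24.9 and 16.1 CPM. The group did not shift as 1 block: 10 of 14 were lower and 4 higher, against 4032 lower and 2879 higher of all 6911 genes. Its median log2 ratio was −0.49, and −0.16 with TMM scaling. Among metal-binding partners that are no carriers, the metallothioneins Mt3, Mt1 and Mt2 were at 1578 and 27.98 CPM, at 505 and 967 CPM, and at 230.5 and 245 CPM. The ferritin chains Fth1 and Ftl1 were at 6619 and 2634 CPM and at 1780.3 and 4228 CPM.

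Ion and acid-base carriers numbered 8. Of these, 2 (Slc9a3 and Slc4a4) were at least 2-fold lower, against 18.7 percent of all genes. Another 2 were at least 2-fold higher, against 7.23 percent. Slc4a4 fell short of 2-fold (log2 ratio −0.86) when cells with other types' markers were left out. Slc26a2, the sulfate transporter that supplies sulfation of mucins and proteoglycans, was at 18.1 CPM in the control and 63.3 CPM with RSPO1-Fc, 3.51-fold higher (interval 3.29 to 3.74). Thinned shares of cells with a UMI were 6.91% and 24.2% (32.7% and 64.6% unthinned). Slc4a11, a borate-transporter relative that conducts protons, was at 7.91 and 21.9 CPM, 2.77-fold higher. Like Slc26a2, it passed the limit in the RSPO1-Fc library alone, so both were bound to be higher there. Slc4a4, the basolateral sodium bicarbonate cotransporter, was at 29.8 and 12.99 CPM, and the chloride-bicarbonate exchanger Slc4a2 at 39.2 and 35.6 CPM. Of 8 carbonic anhydrases, which make bicarbonate for these carriers, 2 reached 20 CPM. Both were at least 2-fold lower, against 18.7 percent of all genes: Car1 at 24.6 and 0.640 CPM and Car2 at 109 and 22.05 CPM. Car1 passed the limit in the control alone, so it was bound to be lower. Slc9a3r1 is no carrier but a scaffold, NHERF1, that anchors apical membrane proteins. It was at 49.8 and 141 CPM, 2.84-fold higher (interval 2.73 to 2.95), while the exchanger Slc9a3 was lower. Slc9a3 passed the limit in the control alone, so the rule fixed its direction.

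All 5 organic acid, bile acid and drug carriers were lower in the RSPO1-Fc library, against 4032 of all 6911 genes. Slc17a5, at 21.0 and 19.7 CPM, was higher with TMM scaling. Among the 3 at least 2-fold lower (against 18.7 percent of all genes) were Slc16a10 and Slc18a1. Slc16a10, an aromatic amino acid carrier of the basolateral membrane, was at 60.7 and 5.15 CPM, 11.8-fold lower (interval 10.6 to 13.2). Slc18a1, a vesicular monoamine transporter of enteroendocrine cells, was at 40.3 and 4.77 CPM, 8.47-fold lower (interval 7.56 to 9.51).

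Among export pumps of the ABC family, 4 of 4 with 20 CPM were lower (against 4032 of all 6911 genes) and 3 at least 2-fold (against 18.7 percent). Abcc2 was at 58.0 and 6.22 CPM and Abcc4 at 83.2 and 16.1 CPM. The organic anion carrier Slco5a1 was at 31.1 and 10.6 CPM.

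**Figure D2:**
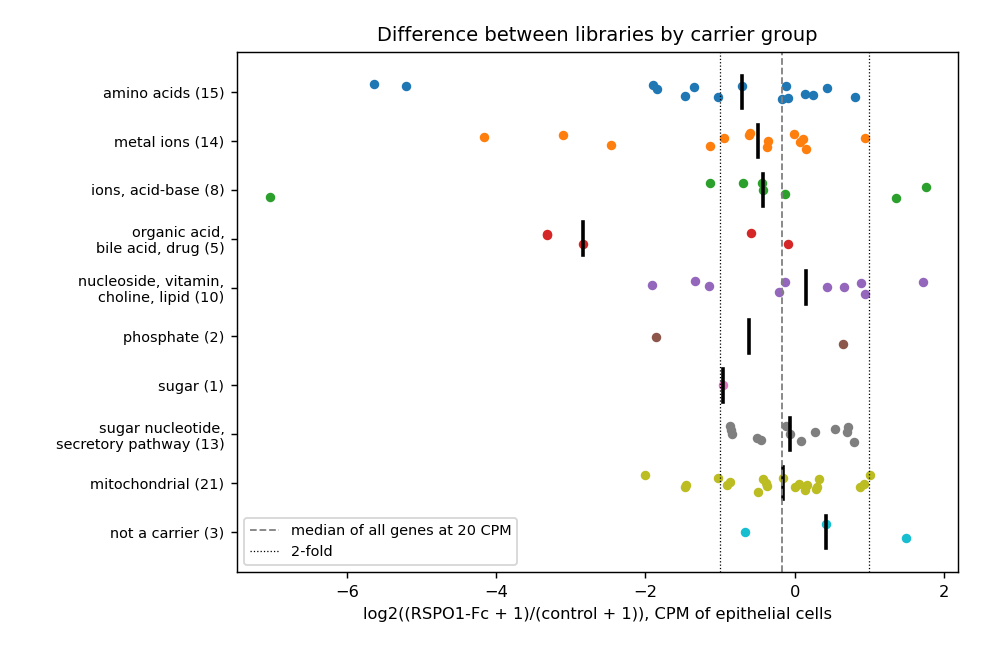
Each point is 1 member, placed by its log2((RSPO1-Fc + 1)/(control + 1)) on the x axis and by carrier group on the y axis, with the number of members in brackets. Black bars are group medians, the dashed line is the median of all genes at 20 CPM (−0.18) and dotted lines mark 2-fold. The organic acid group has the lowest median (−2.84), and sugar nucleotide carriers all lie within the dotted lines.

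Of the vitamin, nucleoside, choline and lipid carriers (10), 1 was at least 2-fold higher (against 7.23 percent of all genes). At least 2-fold lower were 3 (against 18.7 percent). With TMM scaling Slc29a1, Slc52a2 and Slc44a1 became at least 2-fold higher, and Slc27a1 fell short of 2-fold lower. Slc19a1, the reduced folate carrier, was at 7.46 and 26.8 CPM, 3.59-fold higher (interval 3.25 to 3.97). Slc29a1, the equilibrative nucleoside transporter ENT1, was at 21.6 and 42.5 CPM, 1.97-fold higher, and the riboflavin carrier Slc52a2 was at 13.4 and 25.8 CPM. The choline carriers Slc44a1 and Slc44a2 were at 53.8 and 85.6 CPM and at 37.0 and 33.8 CPM. Lower were the ascorbate carrier Slc23a2 (20.4 and 4.68 CPM), the choline-like carrier Slc44a3 (27.3 and 10.2 CPM) and the fatty acid transport protein Slc27a1 (22.1 and 9.43 CPM).

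The 21 mitochondrial carriers of the SLC25 family were mostly close between libraries. Their sum was 2368 CPM in the control and 2710.2 CPM with RSPO1-Fc, and their median log2 ratio was −0.16 (0.18 with TMM scaling). Of the 21, 4 were at least 2-fold lower (against 18.7 percent of all genes) and 1 at least 2-fold higher (against 7.23 percent). With TMM scaling Slc25a5 (log2 ratio 1.22) and Slc25a10 (1.26) also became at least 2-fold higher, and Slc25a16 fell short of 2-fold lower. The ADP/ATP carriers differed in opposite directions: Slc25a5 (ANT2), the form of proliferating cells, was at 613 and 1132 CPM, 1.85-fold higher (interval 1.82 to 1.87), and Slc25a4 (ANT1), the form of heart and muscle, at 319.9 and 175 CPM, 1.83-fold lower (interval 1.79 to 1.87). The phosphate carrier Slc25a3 was near equal, at 695 and 723 CPM.

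Slc25a13, the aspartate-glutamate carrier citrin, was at 15.9 and 33.1 CPM, and the dicarboxylate carrier Slc25a10 at 28.5 and 55.2 CPM. Slc25a13 passed the limit in the RSPO1-Fc library alone. The citrate carrier Slc25a1, which exports carbon for lipid synthesis, was at 96.6 and 118 CPM. Slc25a32, which carries folate and FAD into mitochondria, was at 24.3 and 5.32 CPM, 4.56-fold lower, while the surface folate carrier Slc19a1 was higher. Slc25a32 passed the limit in the control alone and Slc19a1 in the RSPO1-Fc library alone, so the rule fixed both directions. The other members at least 2-fold lower were the ATP-magnesium/phosphate carrier Slc25a23 (33.8 and 11.5 CPM), Slc25a35 (23.99 and 8.14 CPM) and Slc25a16 (20.8 and 9.69 CPM).

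The 13 sugar nucleotide and secretory pathway carriers all lay within 2-fold. The highest by UMIs were Slc35g1, at 99.2 and 54.2 CPM, and Slc35b2, which brings the sulfate donor PAPS into the Golgi, at 61.9 and 43.4 CPM. The CMP-sialic acid carrier Slc35a1 was at 18.1 and 32.2 CPM. The SWEET-type sugar carrier Slc50a1 was at 62.3 and 31.6 CPM. The phosphate carrier Slc20a2 was at 60.7 and 16.02 CPM, uncertain because a gene listed in only 1 of the tables overlaps it on the same strand, and Slc20a1 was at 15.97 and 25.5 CPM.

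Among those just inside the limit were Slc30a7, at 20.5 and 21.6 CPM, Slc12a7, at 20.9 and 15.2 CPM, Slc39a10, at 21.4 and 13.6 CPM, Slc39a6, at 20.97 and 15.9 CPM, and Slc35e1, at 12.8 and 21.5 CPM. Slc4a11, Slc17a5, Slc23a2 and Slc25a16, given above, also lay within 2 CPM of it. Just outside lay Slc22a23, at 15.8 and 19.4 CPM, Slc29a3, at 18.2 and 5.59 CPM, Slc25a37, at 17.3 and 18.2 CPM, and Slc7a6, at 11.02 and 18.1 CPM. Several textbook carriers of the small and large intestine fell below it: the glucose carrier Slc5a1 was at 11.2 and 7.89 CPM, the iron exporter Slc40a1 at 15.2 and 15.01 CPM, the bile acid carrier Slc10a2 at 8.92 and 3.13 CPM, and the chloride-bicarbonate exchanger Slc26a3 had 0 and 55 UMIs.

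Free RNA was measured in barcodes of over 100 and up to 500 UMIs. Slc9a3 was at 99.4 CPM there without and 0.173 CPM with RSPO1-Fc, and Slc30a2 at 52.4 and 3.99 CPM. Both were lower in the RSPO1-Fc library in these barcodes, as in the cells.

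Within the control, members also differed between cell types. Slc9a3 was 62.0-fold higher in epithelial than in macrophage-like cells (151 and 2.43 CPM), and Slc30a2 and Slc18a1 were 75.0- and 116-fold higher. Macrophage-like cells were higher in Slc7a11 (408 against 57.7 CPM), the taurine carrier Slc6a6 (279 against 72.4 CPM), Slc3a2 (237 against 121 CPM) and Slc7a8 (78.8 against 43.8 CPM). Cells of these types are missing from the RSPO1-Fc library, so no comparison of the libraries was made in them.

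**Figure D3:**
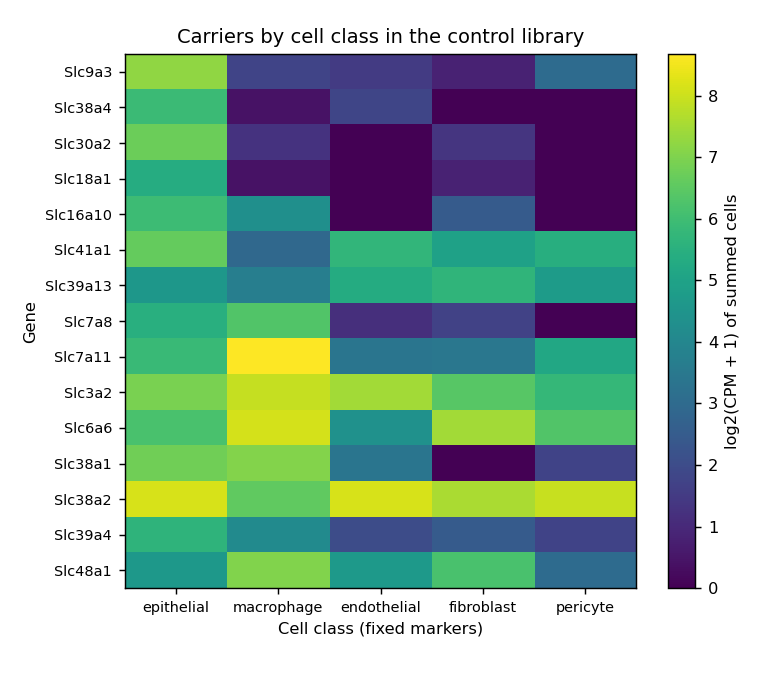
Colour gives log2(CPM + 1) of 15 carriers (y axis) in the summed cells of 5 cell classes of the control library (x axis), with classes called by fixed markers. Slc9a3, Slc38a4, Slc30a2 and Slc18a1 are brightest in epithelial cells, and Slc7a11, Slc6a6 and Slc48a1 in macrophage-like cells.

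Cell states were then compared within each library, on the same cells. Epithelial cells were ranked by a score for each of 5 gene programs, which hold no carrier, and the 25% of cells with the highest score (top group) were set against the 25% with the lowest (bottom group). A carrier was counted where it differed by at least 1.5-fold in the same direction in both libraries, and 89 members had at least 20 UMIs per library over the compared groups. Slc9a3, Slc38a4 and Slc7a8 had too few in the RSPO1-Fc library. Each group held 470 control or 687 RSPO1-Fc cells, and cells are not replicates. In the control, the bottom groups for cycling and surface enterocyte genes had a mean score of 0, and cells tied at 0 were not ranked by score.

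With crypt base and Wnt target genes, the program that R-spondin ligands feed into, 10 members were higher (11.2% against 7.38 percent of genes) and 1 was lower (1.12% against 1.49 percent). Slc16a10 was at 25.3 CPM in the bottom and 101 CPM in the top control group, and at 3.12 and 12.6 CPM in the RSPO1-Fc groups, 3.97- and 4.03-fold higher. Slc41a1 was at 32.4 and 203 CPM in the control and at 7.95 and 17.4 CPM with RSPO1-Fc, 6.26- and 2.20-fold higher. Slc30a2 was at 55.2 and 157 CPM and at 1.04 and 15.4 CPM, 2.85- and 14.8-fold higher. The 1.04 CPM of the bottom RSPO1-Fc group rests on few UMIs, so the size of the 14.8-fold ratio is uncertain.

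Slc18a1 (3.30- and 4.78-fold), Slc39a13 (5.28- and 2.19-fold), Slc39a8 (5.11- and 1.98-fold), Slc25a23 (3.23- and 2.10-fold), Slc27a1, Slc17a5 and Slc1a4 were the other members higher with this program. The exception was Slc7a11, at 86.5 and 26.4 CPM in the bottom and top control groups and at 19.8 and 9.64 CPM in the RSPO1-Fc groups, 3.27- and 2.06-fold lower. The crypt base and Wnt target list itself had 12 of 16 genes at least 2-fold lower in the RSPO1-Fc library, against 18.7 percent of all genes. Its median log2 ratio was −1.69, and the carriers' own library values stand above. Both comparisons use the same cells, so they are not independent of each other. In the RSPO1-Fc library the top crypt group held 74 cells with 5 or more UMIs of other cell types' markers and the bottom group 14, and these groups differed in depth, with median totals of 18789 and 25287 UMIs. With those marker-bearing cells left out 8 members were higher, and with groups taken within 4 classes of cells ranked by total UMIs also 8. Slc17a5 and Slc1a4 were the members lost in both.

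**Figure D4:**
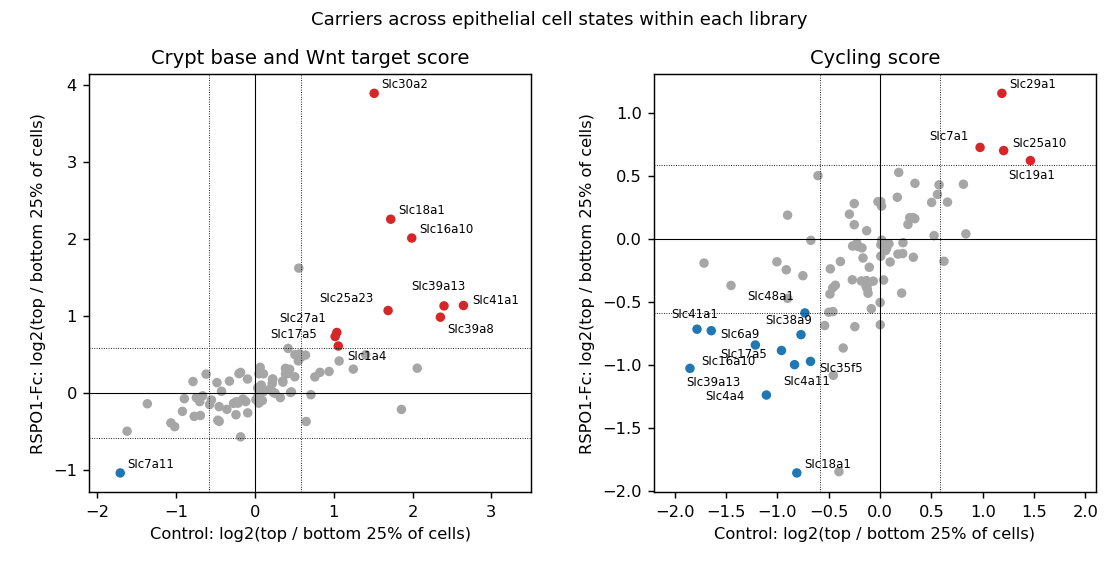
Each point is 1 member, placed by the log2 ratio of CPM in the top over the bottom 25% of control (x axis) and RSPO1-Fc (y axis) epithelial cells, by crypt base and Wnt target score (left) and cycling score (right). Red and blue mark carriers past 1.5-fold (dotted lines) in both libraries. Slc30a2, Slc18a1, Slc16a10 and Slc41a1 stand at the upper right of the left panel, and Slc29a1, Slc19a1, Slc25a10 and Slc7a1 at the upper right of the right panel.

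With cycling genes, 4 members were higher (4.49% against 5.72 percent of genes) and 11 lower (12.4% against 8.77 percent). The 4 carry nucleosides, folate, dicarboxylates and arginine. Slc29a1 was at 14.1 and 32.2 CPM in the bottom and top control groups and at 25.2 and 56.2 CPM with RSPO1-Fc, 2.28- and 2.23-fold higher. Slc19a1 was at 4.35 and 12.0 CPM and at 19.9 and 30.6 CPM, 2.76- and 1.54-fold higher.

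Slc25a10 (2.30- and 1.63-fold) and Slc7a1 (1.96- and 1.66-fold) completed the 4. The cycling list itself had 22 of 23 genes higher in the RSPO1-Fc library, in the same cells, against 2879 of all 6911 genes. Lower in cycling cells were Slc39a13 (3.61- and 2.04-fold), Slc41a1 (3.44- and 1.64-fold), Slc6a9 (3.13- and 1.66-fold), Slc18a1 (1.76- and 3.63-fold), Slc4a4 (2.16- and 2.36-fold), Slc4a11 (1.78- and 2.00-fold), Slc35f5, Slc16a10, Slc17a5, Slc38a9 and Slc48a1. Cycling cells were deeper, with median totals of 43716 UMIs in the top and 23939 in the bottom control group and 28901 and 18730.0 with RSPO1-Fc. Within 4 classes of cells ranked by total UMIs 2 members were higher, Slc19a1 and Slc29a1, and 6 lower. Slc41a1 and Slc48a1 were no longer counted when cells with other types' markers were left out.

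With surface enterocyte genes 0 members were higher (0.702 percent of genes) and 4 lower (2.09 percent): Slc16a10 (2.29- and 2.16-fold), Slc41a1 (2.32- and 1.54-fold), Slc30a2 (1.63- and 2.04-fold) and Slc39a13 (1.91- and 1.503-fold). The same 4 were among those higher with the crypt program. The surface genes themselves summed to 69.4 and 1032 CPM in the bottom and top control groups. With RSPO1-Fc they summed to 252 and 629 CPM, a smaller contrast. With hypoxia and glycolysis genes 0 were higher (0.425 percent) and 1, Slc39a13, lower (1.33 percent). With ATF4 targets, genes of the amino acid stress response to which Slc7a11, Slc3a2 and Slc38a2 are known to belong, 0 were higher (0.147 percent) and 0 lower (0.044 percent). In that comparison Slc38a2 was 1.22-fold and 1.21-fold higher in the top group, Slc3a2 1.08-fold in both libraries, and Slc7a11 at a ratio of 0.861 in the control and 1.20 with RSPO1-Fc. The ATF4 list itself summed to 1323 and 3519 CPM in the bottom and top control groups, and to 1227 and 2010 CPM with RSPO1-Fc. Of all 6824 genes compared, only 10 were higher and 3 lower, so nothing is read from the counts of 0. Why so few genes passed was not tested.

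Promoter sequence was read for the carrier with the largest smaller-of-both-libraries ratio in the crypt program and for Slc29a1, the one in the cycling program. The RefSeq promoter table (GRCm38.p6) had a window of 300 bases for 72 of 92 members. The 250 bases before the listed start are printed from 5′ to 3′ on the gene's strand, chr10:40142255-40142504 on the minus strand for Slc16a10 and chr17:45599619-45599868 on the minus strand for Slc29a1. Both are in lower case throughout because neither holds a motif that was searched.
Slc16a10: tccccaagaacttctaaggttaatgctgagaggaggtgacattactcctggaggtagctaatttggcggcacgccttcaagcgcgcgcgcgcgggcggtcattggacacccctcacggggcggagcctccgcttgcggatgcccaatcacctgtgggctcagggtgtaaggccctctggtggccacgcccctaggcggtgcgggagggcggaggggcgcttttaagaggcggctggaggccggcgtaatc
Slc29a1: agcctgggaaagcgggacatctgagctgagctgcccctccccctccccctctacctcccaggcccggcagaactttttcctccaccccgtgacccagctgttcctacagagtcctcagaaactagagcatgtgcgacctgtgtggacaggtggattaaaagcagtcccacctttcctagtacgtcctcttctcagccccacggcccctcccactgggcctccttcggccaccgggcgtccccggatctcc
The letters CTTTGAT of a TCF site, the factor that carries Wnt signals to DNA, were in 3.73% of 32851 windows on either strand and in 0 of the 9 carriers higher with the crypt program that had a window. The E-box letters CACGTG, read by MYC and its relatives, were in 7.15% of windows and in 0 of the 4 carriers higher with cycling. No match says only that these letters are absent from these windows.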

How the data were processed

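Organoid cells of 2 cultures were measured as 1 droplet library each. The authors deposited unnormalized UMI counts for each gene in every barcode, with no filter on cells. Per the labels' protocols, the target was 5000 cells a library, 58414 (control) and 131291 (RSPO1-Fc) reads per cell, and alignment to mm10. Per the submitters' processing notes, Cell Ranger 2.1.1 and Seurat 3.1.1 were used, while Cell Ranger 3.1.0 is named per the file headers of the control alone. Tables held 91675581 and 89437327 UMIs. Groups came from the treatment label.

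The 27514 shared identifiers were kept, UMIs were summed over epithelial cells and scaled to CPM (66892855 and 70299300 UMIs). The log2 ratio has a pseudocount of 1 CPM, which understates ratios of low genes. Ratios have exact conditional Clopper-Pearson intervals. Counting with Python 3.11.15, numpy 2.4.6 and scipy 1.17.1 was tested on simulated data, and edgeR 4.0.16 gave TMM factors only. Coordinates are GRCm38 (GENCODE M21). Program scores were means of square-root counts after thinning each cell to 5000 UMIs. Cell classes needed 20 UMIs of the leading marker list. Doublets were not removed. As an alternative, the 5% of cells with the most UMIs were left out. Overlaps on the same strand, by genes in both tables, touch Slc35a3, Slc39a10 and Slc35b3, among others, whose counts are uncertain. Some members chosen by the rules are not reported here.

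Role groups follow the family number. Named genes were, in each group, up to 3 members with the largest and 2 with the smallest ratio past 2-fold and the 2 highest by mean CPM, for each program the 3 largest and 3 smallest ratios past 1.5-fold in both libraries, and a fixed set of amino acid, metal and intestinal carriers. Others were named after their values were seen, to account for members past 2-fold. The members, lists and tests were chosen with earlier results of these data known. Protein sequences were not analysed here. Alternatives covered the Epcam minimum, mitochondrial share, other cell types' markers, depth, cell weight, scaling, free RNA, pseudocount, low-value filter, size of the compared score groups and, added after seeing the data, doublets and depth classes.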

Additional observations from a re-analysis of the deposited data

Results flagged for a closer look

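Carriers of 2 metals differed in direction between the libraries across hypoxia and glycolysis states, and this difference was not tested. Slc39a8, a zinc and manganese importer, was at 67.6 CPM in the lowest-scoring and 33.5 CPM in the highest-scoring 25% of control cells, a ratio of 0.496, and at 18.01 and 27.6 CPM with RSPO1-Fc, a ratio of 1.53. Slc30a2, the vesicular zinc carrier, was at 121 and 80.3 CPM in the control, a ratio of 0.664, and at 4.57 and 7.55 CPM with RSPO1-Fc, a ratio of 1.65. These RSPO1-Fc cells held 80 and 125 UMIs of Slc30a2. In the control, 92 cells of the lowest-scoring and 176 of the highest-scoring group had 5 or more UMIs of other cell types' markers, and their part in the result was not tested.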

How the results depend on the processing

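With 1 library a group, no result has a replicate check, and what RSPO1-Fc did cannot be told apart from what else differed between the cultures. Group medians depended on the settings. The mitochondrial median of −0.16 was 0.18 with TMM scaling and 0.034 at a limit of 50 CPM, and the sugar nucleotide median of −0.068 was 0.26 with TMM. The ion carrier median of −0.43 was −2.64 at 50 CPM, where fewer members remain, and the organic acid median of −2.84 was −0.21 with no filter. Members at least 2-fold higher numbered 5, but 9 with the mean of per-cell CPM, 16 with TMM scaling, 2 at a limit of 50 CPM and 41 with no filter. Members at least 2-fold lower numbered 24, but 8 at 50 CPM and 132 with no filter. With TMM scaling Slc27a1, Slc4a4, Slc39a8, Slc25a16 and Slc6a9 were within 2-fold, 11 other members became at least 2-fold higher, and the members' median was −0.033. A pseudocount of 5 CPM put Slc27a1, Slc4a4, Slc25a16, Slc6a9 and Slc25a13 within 2-fold. The medians of members and of all genes differed by −0.19, by −0.11 with cells thinned to 5000 UMIs, and by 0.074 with no filter on the members. In the last case all genes were still those at 20 CPM, so the 2 sets are unlike.

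Among cell states, the surface program had 2 members lower with larger top and bottom groups (a wider share of cells), with cells holding other types' markers left out and with thinned cells, and thinned cells gave 1 higher. The hypoxia program had 0 lower with larger groups and 3 lower and 1 higher with thinned cells. The ATF4 program had 1 higher with thinned cells, with depth classes and without the cells of most UMIs, and 1 lower with thinned cells. The cycling program had 2 higher and 6 lower within depth classes. The cause of these changes was not tested. Ratios of members near 0.2 CPM rest on 11 to 15 UMIs in the RSPO1-Fc library. No paired analysis was possible because each group has 1 library.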
